A study of Mus musculus with 9 samples.

Results

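Podocytes are the cells that wrap the glomerular capillaries, and 9 genes of their slit diaphragm and foot processes were followed through 3 structures of the embryonic mouse kidney: Nphs1, Kirrel, Magi2, Cd2ap, Podxl, Ptpro, Synpo, Actn4 and Plce1. Members were taken as all probe sets of the array that its annotation paired with exactly 1 symbol, that symbol being one of the 9. This gave 13 probe sets for 8 of the 9 genes, out of 12393 genes with such a probe set; Magi2 was not analysed here. A filter on dim values, above the median of the own array in at least 3 arrays, passed 11 of the 13 probe sets, which covered 7 genes. Kirrel and 1 of the 2 Synpo probe sets did not pass and are given by their values only.

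The structures were the renal vesicle, the first epithelial stage of a nephron, the later s-shaped body, whose lower limb holds the podocyte precursors, and the collecting duct, which the submitters set as the reference. All 9 samples came from wild-type kidneys of strain 129 at E14.5 (Theiler stage 22), with the sex unknown, and were dissected by morphology. Per the labels, identity and purity were checked by staining and RT-PCR, each renal vesicle and s-shaped body sample pooled 20 structures, and the pool size was 1 for each collecting duct sample. Each structure had 3 samples, each hybridised to 1 Affymetrix MOE430A array after 2 rounds of T7 amplification of total RNA.

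Foot processes of neighbouring podocytes interlock, and the slit between them is bridged by nephrin and nephrin-like proteins that adaptor proteins tie to the actin bundles inside. A strongly charged apical coat keeps the slits open, and loss of many of these components leads to proteinuria or nephrotic syndrome. In the developing kidney these genes are known to come on as podocyte precursors mature from the s-shaped body to the capillary loop stage.

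The stretches upstream of the transcription start are shown for 5 members, namely Nphs1, Plce1 and Ptpro, whose brightest probe sets differed between structures by over 5-fold, and Actn4 and Cd2ap, whose differences did not exceed 2.7-fold. Each is the 250 bases before the RefSeq start on build GRCm38.p6, written 5′ to 3′ on the strand of the gene, and 7 of the 9 members had such a window. Capitals mark matches on either strand to GCGNGGG, the core shared by WT1 and EGR factors, or to CANNTG, the E-box, which reads the same on both strands. No marked matches overlap, and GTAAACA, a forkhead motif, was searched as well.
Nphs1 (chr7:30459808-30460057, plus strand): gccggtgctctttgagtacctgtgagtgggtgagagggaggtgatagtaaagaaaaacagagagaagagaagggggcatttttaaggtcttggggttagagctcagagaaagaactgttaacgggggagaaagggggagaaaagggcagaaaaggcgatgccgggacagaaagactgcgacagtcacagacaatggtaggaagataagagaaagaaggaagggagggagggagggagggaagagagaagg
Ptpro (chr6:137252049-137252298, plus strand): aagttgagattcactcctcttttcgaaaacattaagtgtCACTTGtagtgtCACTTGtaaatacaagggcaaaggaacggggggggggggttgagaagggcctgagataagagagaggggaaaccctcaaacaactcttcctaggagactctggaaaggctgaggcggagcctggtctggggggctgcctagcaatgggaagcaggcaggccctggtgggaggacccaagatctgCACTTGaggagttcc
Plce1 (chr19:38523947-38524196, plus strand): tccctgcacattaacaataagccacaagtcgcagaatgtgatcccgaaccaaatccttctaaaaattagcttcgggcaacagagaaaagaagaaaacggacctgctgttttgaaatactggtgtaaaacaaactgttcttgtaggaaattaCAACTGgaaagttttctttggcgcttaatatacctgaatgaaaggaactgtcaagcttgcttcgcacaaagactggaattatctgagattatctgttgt
Actn4 (chr7:28962333-28962582, minus strand): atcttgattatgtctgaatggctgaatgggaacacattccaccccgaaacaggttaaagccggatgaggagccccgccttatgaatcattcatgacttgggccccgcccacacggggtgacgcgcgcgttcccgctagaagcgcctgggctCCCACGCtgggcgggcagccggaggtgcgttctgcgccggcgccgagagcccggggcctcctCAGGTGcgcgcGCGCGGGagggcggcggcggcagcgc
Cd2ap (chr17:42876425-42876674, minus strand): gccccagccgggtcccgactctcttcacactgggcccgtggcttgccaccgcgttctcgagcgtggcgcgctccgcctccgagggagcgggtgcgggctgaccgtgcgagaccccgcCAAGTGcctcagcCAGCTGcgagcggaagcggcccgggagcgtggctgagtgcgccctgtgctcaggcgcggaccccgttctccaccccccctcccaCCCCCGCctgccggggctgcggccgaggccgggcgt

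The Ptpro window held 3 E-boxes, all spelled CACTTG, at 211, 199 and 15 bases before the start. The Plce1 window held 1 E-box, Actn4 held 1 E-box and 2 GCGNGGG matches, Cd2ap held 2 E-boxes and 1 GCGNGGG match, and Nphs1 held neither. Of 32851 promoter windows of the same length, 66.2% held CANNTG, 20.3% held GCGNGGG and 3.17% held GTAAACA, which no printed window held. The GC share was 38.8% in Plce1, 50.8% in Nphs1 and 53.6% in Ptpro, against 67.6% in Actn4 and 76.4% in Cd2ap and a median of 52.4% over all windows. These matches describe the letters of the windows and are not shown to be bound.

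Values are deposited intensities on a linear scale, and differences are of quantile-normalized log2(intensity + 26) from 1 limma fit over all 9 arrays, with Benjamini-Hochberg adjusted p-values over the 11595 probe sets tested. A change is called where the adjusted p was under 0.05. The added constant understates the fold of dim probe sets, and levels of different probe sets are not compared. The p-values measure the spread between samples, which were pools of 20 structures except in the collecting duct, where the pool size was 1. Pool size thus cannot be told apart from structure in comparisons with the collecting duct. The labels do not say whether the samples came from separate litters.

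Array medians ran from 112.2 to 144.8, and the mean correlation of an array with the others of its structure was 0.943 to 0.976. The 3'/5' signal ratio of Gapdh, a measure of transcript shortening, was 20.03 to 32.43 in s-shaped bodies against 11.62 to 18.56 in collecting ducts and 11.95 to 14.54 in renal vesicles, while that of Actb overlapped (30.06 to 50.89 over all arrays). Summed collecting duct markers were 40317 to 52718 in its own arrays, 2514 to 5264 in renal vesicles and 906 to 1105 in s-shaped bodies. In collecting ducts the sums follow Krt8, Krt18 and Krt19. Wnt11 was highest in renal vesicles (178.3 to 448.5), and Hoxb7 and Wnt9b overlapped between structures. Summed cap mesenchyme markers were highest in renal vesicles (1440 to 2108, against 387 to 697 elsewhere), as were Uncx (712.8 to 1159.4) and Crym. Eya1 was lower there (21.3 to 61.5) than in collecting ducts (127.3 to 138). Gdnf and Meox1 overlapped the s-shaped body, and Cited1 read at most 13.9 on every array. The collecting duct arrays also carried urothelium markers (summed 12783 to 15157, against 332 to 560 in the other structures). Of the 5 genes with a probe set, Foxa1 (8821.6 to 11507.2), Trp63 and Upk3a were high there, while Upk2 and Krt5 overlapped the other structures. Ret, a ureteric tip gene, read 107.3 to 182.1 in collecting ducts and 87 to 123.4 elsewhere. Markers of further cell types were much higher in the s-shaped body arrays than in the others: summed endothelial markers were 10962 to 12632 there, 827 to 1247 in collecting ducts and 871 to 1213 in renal vesicles. Stromal and mural markers were 12472 to 14360 against 1025 to 1299 and 1037 to 1813, and erythroid markers 18330 to 21977 against 83 to 2440 and 435 to 2563, in the same order. All 10 tested endothelial genes and all 8 tested stromal and mural genes were called higher in s-shaped bodies against either structure. Of all tested probe sets 15.2% were higher against the collecting duct and 16.7% against the renal vesicle. Some of the marker genes, such as Icam2 (at most 93.2 elsewhere) and Cd34 (at most 49.6), passed the filter only with their s-shaped body arrays. They had to differ, so the counts lend no support. The part of the further cell types, the urothelium markers and the Gapdh ratio in the results below was not tested.

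In the s-shaped body 6 of the 7 tested genes were higher than in collecting ducts, and all 7 were higher than in renal vesicles by at least 1 probe set. Against the collecting duct 8 of the 11 probe sets were higher and 0 lower, where 15.2% of all tested probe sets were higher and 14.1% lower. Against the renal vesicle 10 were higher and 0 lower, where 16.7% of all were higher and 17.4% lower. The median difference of the 11 probe sets was 2.54 against the collecting duct (-0.04 over all probe sets) and 2.18 against the renal vesicle (-0.05 over all). The F test over the 3 structures called 11 of 11, beside 46.0% of all probe sets. The counts and medians are over probe sets that passed the filter and lend no support, because Nphs1, both Ptpro probe sets and Podxl 1417396_at passed only with their s-shaped body arrays, 3 of 3 above the array median against at most 1 of the other 6, and so had to differ. With no filter, 9 of all 13 were called higher in each of these comparisons. In bulk samples such as these, more podocyte precursors and more RNA per cell cannot be told apart, and the comparisons share arrays, so that each is given side by side and not as support for another.

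In the renal vesicle the pattern was different. Against the collecting duct only 1 of the 11 probe sets was higher, Ptpro 1417676_a_at, and 4 were lower, the 3 of Cd2ap and that of Actn4, beside 15.2% of all probe sets higher and 13.8% lower. The median difference of the 11 was -0.28, against 0.03 over all. The 3 renal vesicle arrays also differed among themselves: replicate 3 stood above both others for 6 of the 11 probe sets by at least 1 log2 unit, as described below for each gene. Without replicate 3 the comparison with the collecting duct gave 2 higher and 6 lower, 8 calls in place of 5. Over all probe sets, 1347 of 11406 were higher and 1419 lower without it, in place of 1757 and 1603 of 11595.

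**Figure D1:**
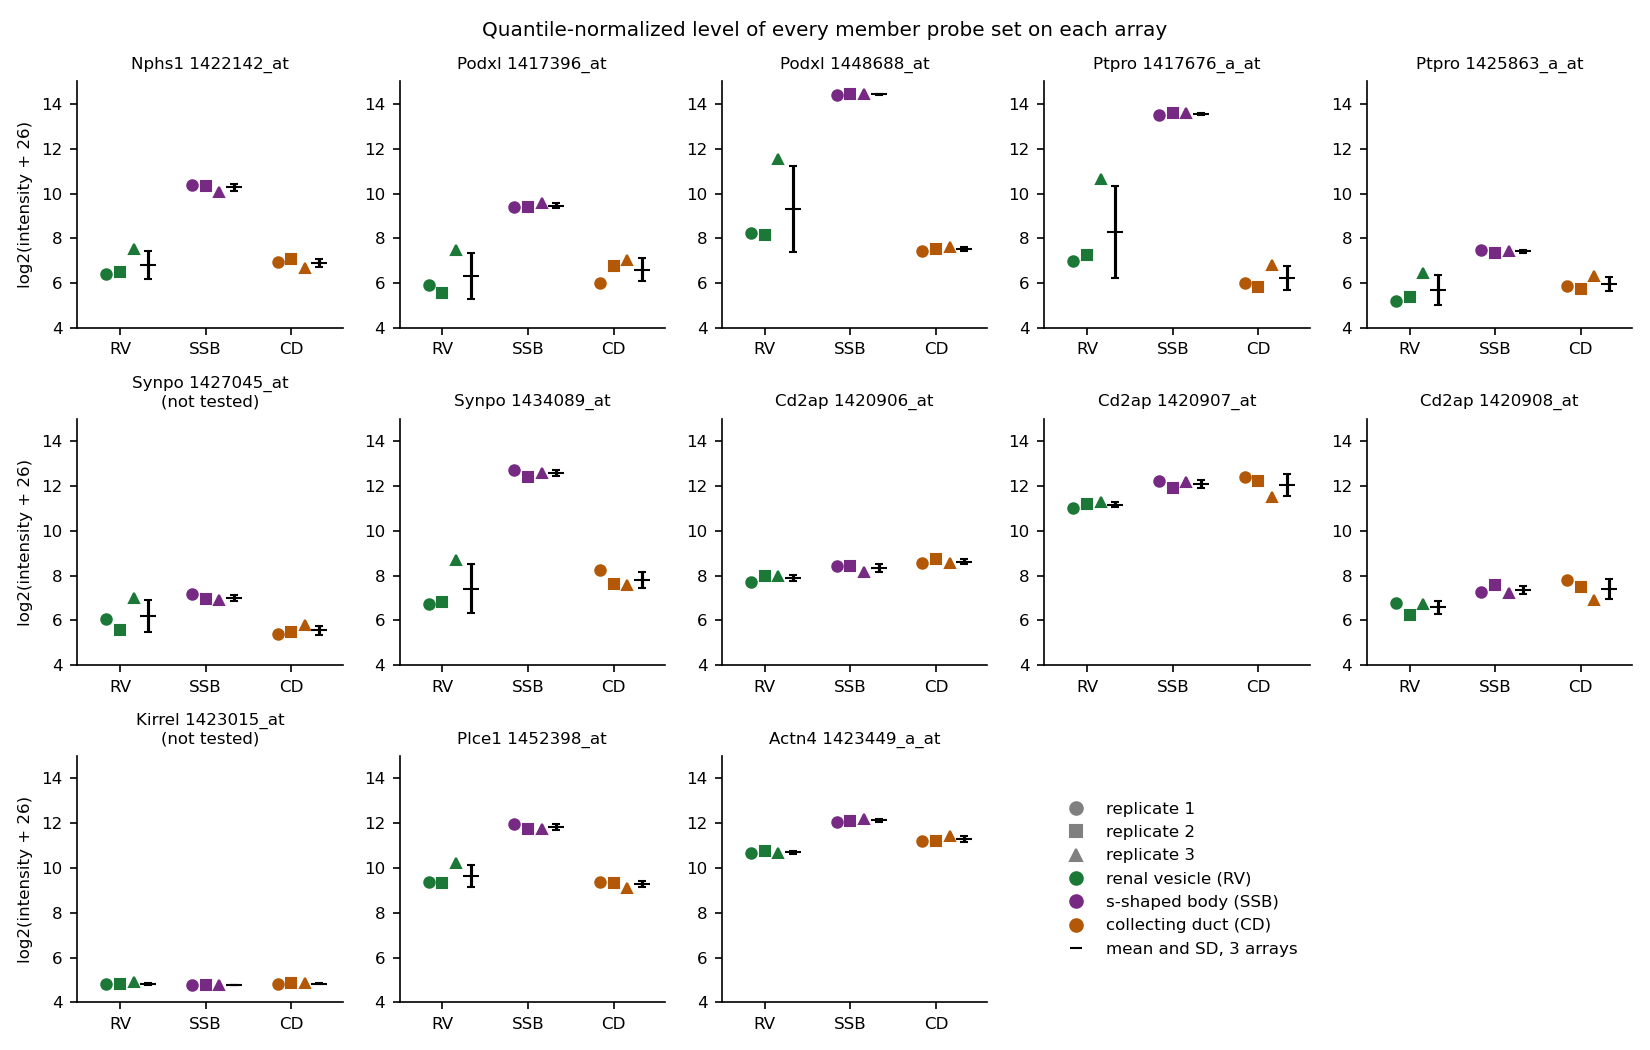
Level of all 13 probe sets as quantile-normalized log2(intensity + 26) on each array, with 1 panel per probe set, 1 symbol per replicate and the mean and SD of 3 arrays beside them. The s-shaped body arrays of Nphs1, Podxl, Ptpro, Synpo 1434089_at and Plce1 lie above the rest, and renal vesicle replicate 3 (triangle) lies at least 0.83 above the other renal vesicle arrays for those genes, but within 0.10 of the higher of them for Cd2ap and Actn4.

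Among the slit diaphragm genes, Nphs1 encodes nephrin, the adhesion protein that spans the slit. Its intensity was 50.4, 60.9 and 146.6 in renal vesicle replicates 1 to 3, 1313, 1285.1 and 1055.3 in s-shaped bodies, and 92.6, 114.2 and 89.8 in collecting ducts. The s-shaped body arrays thus stood above all others, and the collecting duct arrays lay between the lower pair of renal vesicle arrays and the third. The log2 level was 10.27 ± 0.16 (SD, n = 3) in s-shaped bodies, 6.81 ± 0.61 in renal vesicles and 6.89 ± 0.19 in collecting ducts. Nphs1 was 10.4-fold higher in s-shaped bodies than in collecting ducts (log2 difference 3.38, SE 0.27, adjusted p = 1.3e-06) and 11-fold higher than in renal vesicles (3.46, SE 0.27, adjusted p = 2.7e-06). Renal vesicle and collecting duct were not separated (-0.08, SE 0.27, adjusted p = 0.86), and the sign of that difference turned when renal vesicle replicate 1 (0.12), renal vesicle replicate 2 (0.08) or collecting duct replicate 2 (0.01) was left out.

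Kirrel encodes NEPH1, the partner of nephrin in the slit. Its only probe set read 1.1 to 3.4 on all 9 arrays, while the 20th percentile of the arrays lay between 22.1 and 31.3, so the signal was among the dimmest of the array in every structure. No difference was tested, and such readings do not show that the transcript was absent.

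Cd2ap encodes an adaptor that links nephrin to actin and to endocytosis, and is known to be expressed in many epithelia. The brightest of its 3 probe sets, 1420907_at, read 2139.7, 2344.3 and 2490.9 in renal vesicles, 4764.8, 3731.4 and 4474 in s-shaped bodies, and 5003.3, 4650.8 and 2795.4 in collecting ducts. The renal vesicle arrays were the lowest, and the arrays of the other structures overlapped. Its level was 1.85-fold lower in renal vesicles than in collecting ducts (log2 difference -0.89, SE 0.22, adjusted p = 0.0087) and 1.92-fold higher in s-shaped bodies than in renal vesicles (0.94, SE 0.22, adjusted p = 0.0052). With median centring the first of these calls was lost (-0.63, adjusted p = 0.061). No change was called between s-shaped body and collecting duct (0.05, SE 0.22, adjusted p = 0.89).

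The other two Cd2ap probe sets ranked the structures in much the same way. Probe set 1420906_at read 165.1, 211.1 and 214.4 in renal vesicles, 324.7, 333.6 and 271.2 in s-shaped bodies and 355.7, 411 and 356.3 in collecting ducts. Here the renal vesicle was 1.66-fold lower than the collecting duct (-0.73, SE 0.17, adjusted p = 0.0066), but its difference from the s-shaped body was not called (0.45, SE 0.17, adjusted p = 0.058) although the arrays did not overlap. Probe set 1420908_at ran from 45.3 to 75.6 in renal vesicles, 132.5 to 166.7 in s-shaped bodies and 110.8 to 200.8 in collecting ducts. It was lower in renal vesicles than in collecting ducts (-0.83, SE 0.26, adjusted p = 0.034) and higher in s-shaped bodies than in renal vesicles (0.78, SE 0.26, adjusted p = 0.038). Both calls of this dim probe set were lost together when renal vesicle replicate 1 (adjusted p = 0.052 and 0.056), renal vesicle replicate 2 (0.13 and 0.15), s-shaped body replicate 1 (0.051 and 0.081) or collecting duct replicate 2 (0.098 and 0.053) was left out.

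Podxl encodes podocalyxin, the charged sialomucin of the podocyte's apical coat, which endothelial cells also carry. Probe set 1448688_at read 248.2, 247.3 and 3018.1 in renal vesicles, 20274.5, 19486.8 and 25438.1 in s-shaped bodies, and 146.5, 165.5 and 182.5 in collecting ducts. All 3 renal vesicle arrays were above all collecting duct arrays, and replicate 3 was more than 3 log2 units above the other two (3.32 above the higher of them). The s-shaped body was 119-fold above the collecting duct (log2 difference 6.90, SE 0.66, adjusted p = 6.1e-06) and 34.7-fold above the renal vesicle (5.12, SE 0.66, adjusted p = 0.00011). The renal vesicle exceeded the collecting duct by 1.78, with an SE of 0.66 that missed the threshold (adjusted p = 0.063). This SE carries the renal vesicle SD of 1.94, against 0.01 in s-shaped bodies and 0.08 in collecting ducts. Without replicate 3 the difference was smaller, 0.66, but so was its SE, 0.16, and it was called (adjusted p = 0.013). Without renal vesicle replicate 1 or 2 it was also called, at 2.31 and 2.35 (adjusted p = 0.033 and 0.027).

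The dimmer Podxl probe set, 1417396_at, read 28.5, 19.8 and 144.9 in renal vesicles, 666.9, 661.3 and 755.8 in s-shaped bodies, and 36.6, 90.5 and 121.3 in collecting ducts. It rose in s-shaped bodies 7.21-fold over the collecting duct (2.85, SE 0.42, adjusted p = 0.00024) and 8.76-fold over the renal vesicle (3.13, SE 0.42, adjusted p = 0.00015). Between renal vesicle and collecting duct the probe sets differed in sign, since this one gave -0.28 (SE 0.42, adjusted p = 0.66), which became -0.87 (adjusted p = 0.05, just under the threshold before rounding) without replicate 3 and 0.09 (adjusted p = 0.91) without replicate 2. The low pair of renal vesicle readings lay near the 20th percentile of their arrays.

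Ptpro encodes GLEPP1, a receptor tyrosine phosphatase of the apical foot process membrane. Probe set 1417676_a_at read 85.3, 120.5 and 1578.5 in renal vesicles, 11031.5, 11396.4 and 12539.8 in s-shaped bodies, and 35.2, 36.6 and 102.2 in collecting ducts. The s-shaped body exceeded every other array, renal vesicle replicate 3 stood far above replicates 1 and 2, and after normalization all renal vesicle arrays (log2 6.97, 7.26 and 10.65) were above the highest collecting duct array (6.83). Ptpro was 162-fold higher in s-shaped bodies than in collecting ducts (7.34, SE 0.72, adjusted p = 7.5e-06) and 38.3-fold higher than in renal vesicles (5.26, SE 0.72, adjusted p = 0.00017). It was the only probe set of the 11 called higher in renal vesicles than in collecting ducts (2.08, SE 0.72, adjusted p = 0.048). Without replicate 3 that difference fell to 0.90 (SE 0.27, adjusted p = 0.035). The call was lost when any s-shaped body array (adjusted p = 0.065 to 0.067) or collecting duct replicate 1 (0.096) or 2 (0.14) was left out.

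Ptpro's dim probe set, 1425863_a_at, ran from 9.4 to 57.2 in renal vesicles, with replicate 3 the highest, and read 157.3, 139.1 and 156 in s-shaped bodies, and 31.6, 31.8 and 62.6 in collecting ducts. Renal vesicle replicates 1 and 2 were the lowest arrays of all, and replicate 3 was inside the range of the collecting duct by deposited intensity but, at log2 6.45, above its 3 arrays (5.72 to 6.31) after normalization. It was 2.73-fold higher in s-shaped bodies than in collecting ducts (1.45, SE 0.33, adjusted p = 0.0056) and 3.32-fold higher than in renal vesicles (1.73, SE 0.33, adjusted p = 0.0018). Renal vesicle against collecting duct gave -0.28 (SE 0.33, adjusted p = 0.56), the opposite sign to the brighter probe set.

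Synpo encodes synaptopodin, an actin-associated protein of the foot process. Probe set 1434089_at read 68.6, 82.1 and 368.4 in renal vesicles, 6389.6, 5340.8 and 6036.8 in s-shaped bodies, and 279.3, 180.2 and 180.4 in collecting ducts. Renal vesicle replicates 1 and 2 lay below the collecting duct arrays and replicate 3 above them, so that the structures overlapped. The s-shaped body was 26.9-fold above the collecting duct (4.75, SE 0.42, adjusted p = 2.9e-06) and 35.7-fold above the renal vesicle (5.16, SE 0.42, adjusted p = 3.3e-06). The difference of the renal vesicle from the collecting duct was not called with all arrays (-0.41, SE 0.42, adjusted p = 0.5), but without replicate 3 Synpo was called lower in renal vesicles (-1.04, SE 0.22, adjusted p = 0.0062). The untested probe set 1427045_at read 35.2, 19.3 and 93.7 in renal vesicles, 118.7, 98.7 and 100.6 in s-shaped bodies, and 15.4, 22.7 and 34.4 in collecting ducts. It was below the median of its own array on all 9 arrays, and the s-shaped body arrays were again above those of the collecting duct.

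Actn4 encodes alpha-actinin-4, which cross-links actin in foot processes and is known from many other cells. It read 1602.4, 1735.7 and 1600.4 in renal vesicles, 4137.1, 4379.9 and 4574.4 in s-shaped bodies, and 2420.3, 2319.2 and 2683 in collecting ducts. The 3 structures did not overlap, and here renal vesicle replicate 3 was level with replicate 1. Actn4 was 1.78-fold higher in s-shaped bodies than in collecting ducts (0.83, SE 0.14, adjusted p = 0.00061) and 2.7-fold higher than in renal vesicles (1.43, SE 0.14, adjusted p = 1.2e-05). The renal vesicle was 1.51-fold below the collecting duct (-0.60, SE 0.14, adjusted p = 0.0071). Leaving out any 1 array changed none of the 3 calls of Actn4.

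Plce1 encodes phospholipase C epsilon, a signalling enzyme whose loss causes an inherited nephrotic syndrome. It read 624.7, 603.2 and 1143.2 in renal vesicles, 3931.7, 3333 and 3351.6 in s-shaped bodies, and 665, 626.4 and 515.5 in collecting ducts. Renal vesicle replicates 1 and 2 fell among the collecting duct arrays and replicate 3 lay between them and the s-shaped body. Plce1 was 5.82-fold higher in s-shaped bodies than in collecting ducts (2.54, SE 0.23, adjusted p = 3.2e-06) and 4.54-fold higher than in renal vesicles (2.18, SE 0.23, adjusted p = 2e-05). The difference of renal vesicle and collecting duct was not called (0.36, SE 0.23, adjusted p = 0.26).

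**Figure D2:**
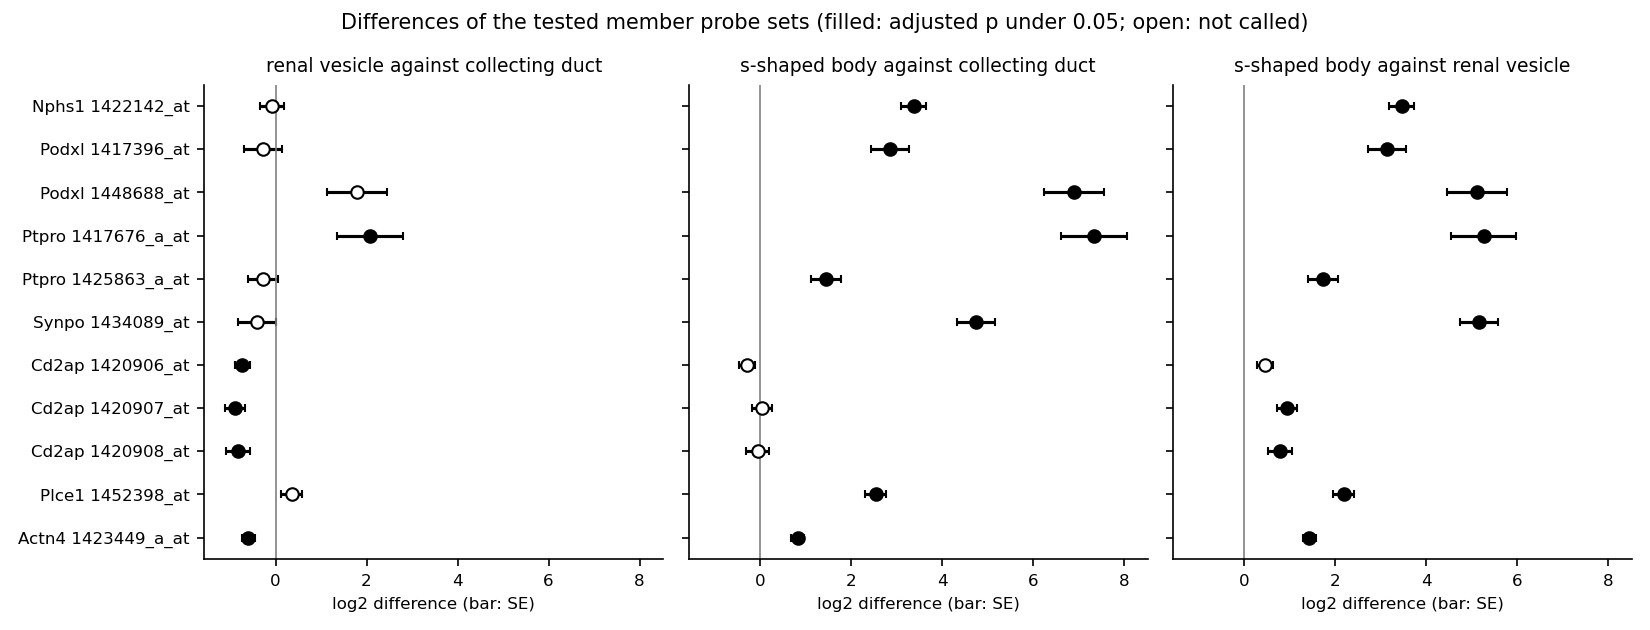
Log2 difference with its SE for the 11 tested probe sets in the 3 comparisons, first structure minus second, filled where the adjusted p was under 0.05. Against the collecting duct 8 s-shaped body differences are filled and positive, while in renal vesicles 4 filled points are negative and 1, Ptpro 1417676_a_at, is positive.

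The order of the structures therefore differed between members. Nphs1, Podxl, Ptpro, Synpo and Plce1 were highest in s-shaped bodies. With all arrays no change was called between their renal vesicle and collecting duct levels, apart from Ptpro 1417676_a_at. Not all of these uncalled differences were small. Podxl 1448688_at was 1.78 higher in renal vesicles (adjusted p = 0.063) and was called without renal vesicle replicate 1, 2 or 3. Synpo 1434089_at was called lower without replicate 3 (-1.04). Cd2ap had its lowest level in renal vesicles, with no call between the other two structures, and Actn4 rose from renal vesicle to collecting duct to s-shaped body with a call at each step.

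The renal vesicle arrays were then set side by side over the members. Replicate 3 exceeded both other arrays by at least 1 log2 unit for 6 of the 11 tested probe sets: Podxl (3.32 and 1.60 above the higher of them), Ptpro (3.39 and 1.06), Synpo (1.86) and Nphs1 (1.01). Over all 11595 probe sets the same was true of 100, or 0.862%. Replicates 1 and 2 stood out in this way for 0 members each and for 0.181% and 0.25% of all probe sets. Plce1 was 0.83 above, while Cd2ap (0.02, 0.10 and -0.01) and Actn4 (-0.08) were near the higher of the other arrays. As these arrays were compared with earlier results of the data known, the counts are a description without a test.

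Replicate 3 was still far from the s-shaped body. As a percentage of the s-shaped body mean of deposited intensity, Podxl 1448688_at stood at 1.14, 1.14 and 13.9 in replicates 1 to 3 and Ptpro 1417676_a_at at 0.732, 1.03 and 13.5. Nphs1 stood at 4.14, 5 and 12, Synpo 1434089_at at 1.16, 1.39 and 6.22 and Plce1 at 17.7, 17 and 32.3. Replicate 3 thus covered 12.9% of the way from the mean of replicates 1 and 2 to the s-shaped body for Podxl 1448688_at and 18% for 1417396_at, 12.8% for Ptpro 1417676_a_at and 32.6% for 1425863_a_at, 7.83% for Nphs1, 5.01% for Synpo 1434089_at and 18.1% for Plce1. The Cd2ap probe sets stood at 21.6%, 12% and 20.5% on this scale, with a much shorter way to go, and Actn4 at -2.55%. For the 536 probe sets at least 4-fold higher in s-shaped bodies than in the mean of renal vesicle replicates 1 and 2 the median was 4.48% (quartiles -1.14 and 14.8). These 536 include the probe sets of Nphs1, Podxl, Ptpro and Plce1 and Synpo 1434089_at.

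Marker lists of other cell types differed in where replicate 3 lay. In renal vesicle replicates 1 to 3 the summed endothelial markers were 951, 1213 and 871, the erythroid markers 1494, 2563 and 435, and the stromal and mural markers 1037, 1775 and 1813. The sums follow their brightest genes. Of the erythroid genes Hbb-y (1416, 2464.2 and 297.6) and Hba-x were lowest in replicate 3, but the dim Alas2 (6.1, 22.4 and 47.3), Hba-a1 and Hbb-bh1 were highest there. Of the stromal genes Foxd1 (144.1, 114.5 and 454.7) and Pdgfrb (88.2, 199.4 and 329.2) were highest in replicate 3, and Col3a1 (156.2, 589.9 and 195.5) and Pdgfra in replicate 2. On the same scale from replicates 1 and 2 to the s-shaped body, replicate 3 stood at -1.99% for endothelium, -8.77% for erythroid, -1.06% for macrophage and 3.46% for stromal and mural markers, beside 14.9% for the podocyte-defining genes. The latter with a probe set were Wt1 and the members Nphs1, Podxl, Ptpro and Synpo, so that this value largely restates the members. Replicate 3 lay there for sums, not for each gene. Replicate 3 stood at 61.7% for proximal tubule precursors, whose summed markers were higher in replicate 3 (1929 against 1106 and 1272), and at 58.6% for collecting duct markers, which were lower (2514 against 3973 and 5264). Wt1, a transcription factor of the podocyte lineage, read 2208.6, 1637.7 and 3730 in replicates 1 to 3, so that replicate 3 was also the highest there. The Gapdh ratio was 11.95, 13.28 and 14.54 in replicates 1 to 3, and the 3'/5' ratio of Actb was 32.26, 32.24 and 41.23, so that replicate 3 had the highest of both. The part of these ratios and of the other cell types in the readings of replicate 3 was not tested.

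**Figure D3:**
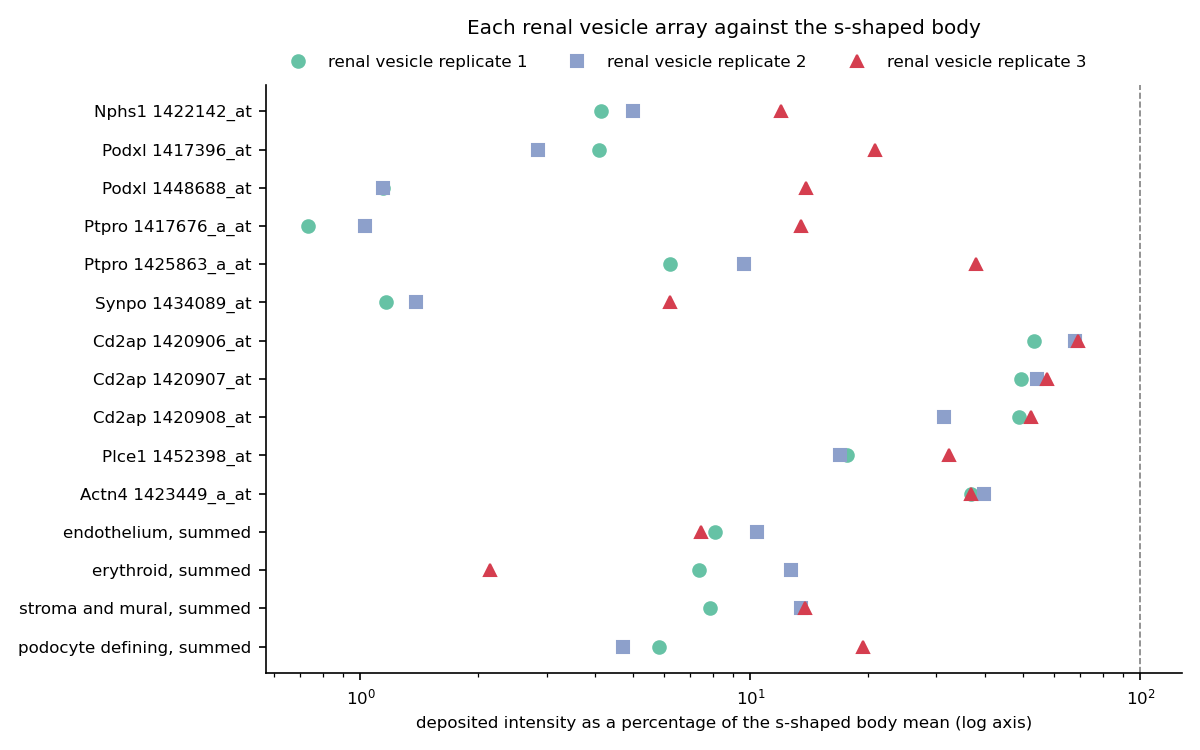
Deposited intensity of each renal vesicle array as a percentage of the s-shaped body mean, on a log axis, for the 11 tested probe sets and for summed marker lists. Replicate 3 (triangle) lies to the right of both others for Nphs1, Podxl, Ptpro, Synpo and Plce1, but not for Actn4 or for the endothelial and erythroid sums.

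Other podocyte genes were counted in 5 lists written from textbook knowledge with earlier results of these data known, and single exceptions to a list were picked after their values were seen. Their shares are to be read beside the 13.8% to 17.4% of all probe sets called in 1 direction. Some probe sets passed the filter only with their s-shaped body arrays and so had to differ. The s-shaped body counts and medians of the lists therefore lend no support. The list of other slit diaphragm partners was mixed against the collecting duct and leaned upward from renal vesicle to s-shaped body. Of its 29 tested probe sets 2 were higher and 7 lower in renal vesicles than in collecting ducts (median -0.33), 8 higher and 4 lower in s-shaped bodies than in collecting ducts (median 0.08), and 13 higher and 1 lower in s-shaped bodies than in renal vesicles (median 0.35). The 14 calls of the last comparison were 9 without renal vesicle replicate 1, 7 without s-shaped body replicate 1 and 8 without s-shaped body replicate 2. Tjp1, the junction scaffold ZO-1, rose 2.82-fold over the collecting duct (1.49, SE 0.15, adjusted p = 1e-05) and 3.56-fold over the renal vesicle in s-shaped bodies, and was not called between these references (-0.34, adjusted p = 0.12). Myo1c, a motor known to carry nephrin to the surface, rose 3.45-fold and 6.81-fold in the same order, and was 1.97-fold lower in renal vesicles than in collecting ducts. Fyn, the kinase that phosphorylates nephrin, accounted for both higher probe sets of the renal vesicle: the one with the smaller adjusted p was 1.89-fold higher in renal vesicles and 2.95-fold higher in s-shaped bodies than in collecting ducts. The 4 probe sets lower in s-shaped bodies than in collecting ducts were 2 of Cask, a scaffold of cell junctions (-0.92 and -0.62), and those of the cadherin Cdh3 (-1.57) and the polarity scaffold Pard3 (-0.88), and Cdh3 was also the 1 lower than in renal vesicles (-1.39). Pard6b, of the polarity complex, and Pik3r1, the PI3-kinase regulator, were 2.06-fold and 1.82-fold lower in renal vesicles than in collecting ducts and 2.24-fold and 1.73-fold higher in s-shaped bodies than in renal vesicles.

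Of 45 probe sets of the foot process cytoskeleton, 7 were higher and 18 lower in renal vesicles than in collecting ducts (median -0.24). In the s-shaped body 14 were higher and 2 lower than in collecting ducts (median 0.17), and 22 higher and 1 lower than in renal vesicles (median 0.53). The 25 calls between renal vesicle and collecting duct were 16 without renal vesicle replicate 2, and the 16 between s-shaped body and collecting duct were 10 without s-shaped body replicate 2 or 3. Vim, the intermediate filament vimentin, which mesenchymal and endothelial cells also make, was 30.8-fold above the collecting duct and 17.2-fold above the renal vesicle. Rhpn1 read at log2 9.01, 8.92 and 8.98 in s-shaped bodies and 5.03 to 5.12 on every other array, so that it was 14.8-fold above the collecting duct and 14.9-fold above the renal vesicle. Those other readings lay near the floor of the added constant. Rhpn1 thus passed the filter only with its s-shaped body arrays and had to differ. Arhgap24, a Rac-inactivating protein of podocytes, was 8.11-fold above the collecting duct and 6.82-fold above the renal vesicle, whose arrays read 9.13, 9.59 and 10.2. Nes, the filament protein nestin, was 7.46-fold above the collecting duct, and Palld, the actin-bundling palladin, 5.1-fold above the renal vesicle. Those lower in s-shaped bodies were 1 probe set of Cdc42, a GTPase that controls actin (-1.50 against the collecting duct and -0.80 against the renal vesicle), and Lima1, an actin-bundling protein (-0.66 against the collecting duct). Cdc42 also had a probe set called higher in s-shaped bodies than in renal vesicles, so its probe sets disagreed. Among the calls between renal vesicle and collecting duct, 1 Vim probe set was 4.34-fold higher in renal vesicles (2.12, SE 0.30, adjusted p = 0.00024). Wasl, an actin nucleation factor, Myh9, non-muscle myosin heavy chain, and Sh3kbp1, a CD2AP relative, were 2.43-fold, 2.37-fold and 2.09-fold lower in renal vesicles than in collecting ducts.

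Genes of the apical surface and the anchors of podocalyxin moved in both directions. Of 25 probe sets 9 were higher and 5 lower in renal vesicles than in collecting ducts (median 0.62), 13 and 3 in s-shaped bodies (median 0.65), and 12 and 1 in s-shaped bodies against the renal vesicle (median 0.52). Slc9a3r2, which encodes the NHERF2 scaffold that binds podocalyxin, was 15.4-fold above the collecting duct and 8.02-fold above the renal vesicle in s-shaped bodies, with renal vesicle arrays at log2 7.51, 7.92 and 8.53. Ptprd, a receptor phosphatase, was 5.57-fold higher in renal vesicles and 12.2-fold higher in s-shaped bodies than in collecting ducts, whereas its relative Ptprf was 3.28-fold lower in renal vesicles than in collecting ducts and also lower in s-shaped bodies with both probe sets (-1.92 and -2.49). Cgnl1, the junction protein paracingulin, was 2.1-fold and 7.59-fold above the collecting duct in the same order, and Msn, the membrane-actin linker moesin, was 6.23-fold above the collecting duct in renal vesicles. Its relative Ezr, the ezrin that ties podocalyxin to actin, was lower than in collecting ducts in both nephron structures (-0.92 and -0.68), Slc9a3r1, the NHERF1 scaffold, was lower in renal vesicles (-1.14 and -0.88), and Rdx, radixin, was the 1 lower in s-shaped bodies than in renal vesicles (-1.10). Cd34, a relative of podocalyxin that also stands in the endothelial list, was 25.2-fold above the collecting duct and 16.4-fold above the renal vesicle, and renal vesicle replicate 3 (log2 5.12) lay below replicates 1 and 2 (6.40 and 6.29). Outside s-shaped bodies Cd34 read at most 49.6, so it too passed the filter only with its s-shaped body arrays and had to differ.

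Basal adhesion and basement membrane genes included some of the strongest differences. Of 34 probe sets 5 were higher and 12 lower in renal vesicles than in collecting ducts (median -0.30), 15 and 1 in s-shaped bodies (median 0.50), and 25 and 2 in s-shaped bodies against the renal vesicle (median 0.86). Of the basement membrane linkers, Nid1 was 42.1-fold and Nid2 17.2-fold higher in s-shaped bodies than in collecting ducts and 6.53-fold and 7.82-fold higher in renal vesicles, and Col4a1, a collagen IV chain, was 8.55-fold and 4.56-fold higher. The other 2 higher in renal vesicles were the laminin chains Lamc1 (1.23) and Lamb1 (1.11). Col4a5, a chain of the mature glomerular basement membrane, was 3.58-fold lower in renal vesicles than in collecting ducts. Parva and Ilk, partners in integrin adhesion, rose 5.72-fold and 3.42-fold from renal vesicle to s-shaped body, and Dag1, the laminin receptor dystroglycan, 2.56-fold. The exceptions in s-shaped bodies were the tetraspanin Cd151, lower than in collecting ducts (-0.99), and Hspg2, perlecan (-0.76), and 1 Lamb1 probe set (-0.41), lower than in renal vesicles. Endothelial and stromal cells also make nidogens and collagen IV, and their markers were high in the same s-shaped body arrays.

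Most podocyte transcription factors of the list were higher in renal vesicles than in collecting ducts. Of 8 probe sets 7 were higher and 0 lower there than in collecting ducts (median 2.78), 8 and 0 in s-shaped bodies (median 5), and 6 and 1 in s-shaped bodies against the renal vesicle (median 0.97). The 7 calls of the last comparison were 4 without renal vesicle replicate 2. Wt1 was 61.8-fold above the collecting duct in renal vesicles (5.95, SE 0.29, adjusted p = 4.6e-08) and 2.21-fold higher again in s-shaped bodies (1.15, SE 0.29, adjusted p = 0.0094). Foxc2 and Foxc1, forkhead factors of the podocyte lineage, were 31-fold and 4.94-fold above the collecting duct in renal vesicles, and Hey1, a Notch target, 57-fold. In collecting ducts Wt1 (7, 5 and 32) and Foxc2 (log2 4.99 to 5.20) read near the floor. Summed cap mesenchyme markers were highest in the same renal vesicle arrays, and whether these factors mark podocyte precursors there was not tested. Hey1 was the 1 probe set lower in s-shaped bodies than in renal vesicles (-0.94, adjusted p = 0.012). Tcf21, the bHLH factor of podocytes and stroma, rose 8.24-fold from renal vesicle to s-shaped body, and Foxd1, which also stands in the stromal list, 6.87-fold. Both were over 1 log2 unit higher in renal vesicle replicate 3 than in the other two, Tcf21 at 8.70, 8.58 and 10.08 and Foxd1 at 7.56, 7.21 and 8.95. By the same rule replicate 3 stood out for 0 of 29 probe sets of the slit diaphragm partners, 0 of 45 of the cytoskeleton, 2 of 25 of the apical list and 1 of 34 of the basal list, and counts of 0 or 1 are near the background of 0.862%.

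**Figure D4:**
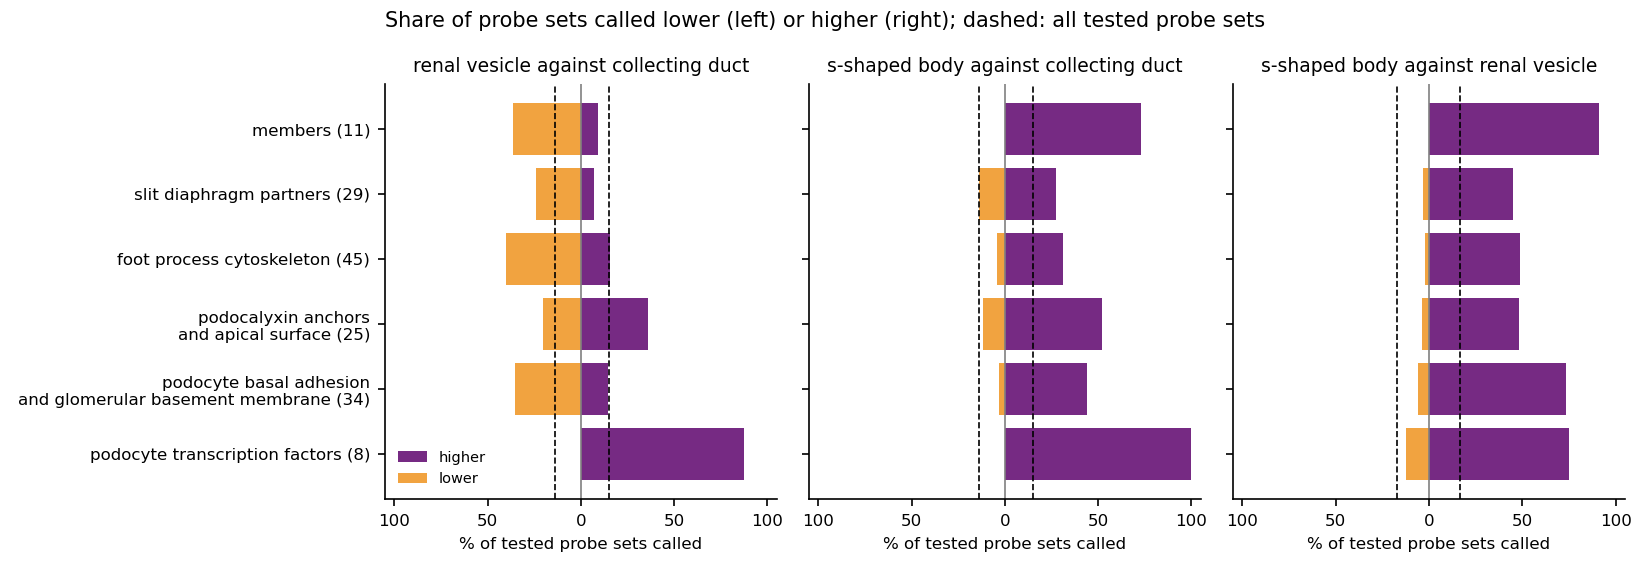
Percentage of tested probe sets called higher (right) or lower (left) for the members and the 5 lists in each comparison, with the number tested in brackets and the share over all 11595 probe sets as dashed lines. In the renal vesicle only the transcription factors and the apical list reach well beyond the dashed line on the higher side, while in the s-shaped body the higher share of every list is above that line. Probe sets that passed the filter only with their s-shaped body arrays are among those counted.

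The genes whose pattern over the 9 arrays was most like that of a member were read from 999 probe sets, 1 per gene, with an SD of at least 1. For Nphs1 they were Cdkn1c (r = 0.997), Mertk (0.994), Arhgap24 (0.992), Tspan2 (0.991) and Retreg1 (0.990), and for Synpo Mertk (0.996), Cpq (0.993), Cdkn1c (0.993), Retreg1 (0.991) and Selenop (0.989). For Podxl they were Npl and Eci2 (both 0.993), Sgip1 and Timp3 (both 0.992) and Parva (0.991), and for Ptpro Eci2 (0.993), Npl (0.990), Cryab, Ackr3 and Slc7a9 (each 0.987). The arrays fall into 3 structures, so these correlations largely restate the levels of the structures, and all values share the same 9 samples.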

How the data were processed

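The submitters' processing notes name GCOS, software for Affymetrix arrays, and give neither its version nor its algorithm. The deposited values are intensities on a linear scale, 1 per probe set and array, which the authors had scaled to a common trimmed mean (500.2 to 500.3). The platform annotation of 2016 paired 20380 of 22690 probe sets with exactly 1 symbol, and Magi2 and Kirrel2 were not analysed here.

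Log2 was taken after adding a pseudocount of 26 (20th percentile of the table). Quantile normalization followed, since medians of arrays still differed by 0.3 log2 units, more than the limit of 0.25. The filter kept 11595 probe sets of 7998 genes, those exceeding their array's median on 3 or more arrays. The model was limma's (version 3.58.1, R 4.3.3): lmFit on all 9 arrays, eBayes with a trend in intensity, 6 residual degrees of freedom, two-sided, with Benjamini-Hochberg adjustment per comparison. The procedure was tested on simulated data. Arrays give no counts, so their number limits the precision.

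Named were every probe set of the members, Wt1, Tjp1 and, per list and comparison, up to 4 called genes with the smallest adjusted p. Members, lists and alternatives were chosen with earlier results of these data known. Alternatives were other pseudocounts, scalings, filters and fits, and leaving out each array. Promoter windows came from RefSeq, and those of Podxl and Synpo were not used here.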

Additional observations from a re-analysis of the deposited data

How the results depend on the processing

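In the s-shaped body the direction of every member call held, but some calls did not. Between 6 and 9 member probe sets were called higher against the collecting duct and 7 to 11 against the renal vesicle over the alternatives, the lowest values (6 of 7 and 7 of 7) being those with 1 probe set per gene, and 0 were lower. Cd2ap 1420908_at lost its call between s-shaped body and renal vesicle with no filter (0.78, adjusted p = 0.071) and without any 1 of 6 arrays (renal vesicle replicates 1 and 2, s-shaped body replicates 1 to 3 and collecting duct replicate 2). At a minimum of 2-fold that of Cd2ap 1420907_at (0.94) and, against the collecting duct, that of Actn4 (0.83) were lost too. Cd2ap 1420906_at gained a call against the renal vesicle with no further normalization (0.59, adjusted p = 0.02), with array weights (0.47, 0.02) and without collecting duct replicate 3 (0.46, 0.044). The F test called 7 members with 1 probe set per gene, all that were tested, and 9 to 11 when 1 array was left out. Calls between renal vesicle and collecting duct depended on the settings. In place of 5 of 11 there were 3 with median centring or only the groups compared, and 1 at a minimum of 2-fold. With no filter 3 of 13 were called, and with 1 probe set per gene 3 of 7. Leaving out 1 array gave 3 to 8 calls. There were 3 without s-shaped body replicate 1, collecting duct replicate 1 or collecting duct replicate 2, and 8 without renal vesicle replicate 3. The call of Ptpro 1417676_a_at was lost with the larger pseudocount (1.60, adjusted p = 0.068), median centring (2.07, 0.053), no further normalization (1.91, 0.07), no filter (2.08, 0.1), no intensity trend (0.058) and only the groups compared (0.1). Median centring moved the median difference of all probe sets to 0.12 for renal vesicle against collecting duct (62.2% of calls higher, against 52.3%) and to -0.13 for s-shaped body against renal vesicle. Uncalled differences that changed sign were Cd2ap 1420907_at between s-shaped body and collecting duct (-0.14 with array weights, -0.22 to 0.24 when 1 array was left out), Cd2ap 1420908_at there (-0.29 to 0.16), and, between renal vesicle and collecting duct, Nphs1 (-0.43 to 0.12) and Podxl 1417396_at (-0.87 to 0.091). Array weights moved the calls of the slit diaphragm partners between renal vesicle and collecting duct from 9 to 19. Over all 11595 probe sets they also raised these calls, from 1757 higher and 1603 lower to 2740 higher and 2470 lower. The cause of this rise was not tested. Over the 5 lists, 1 probe set per gene or a 2-fold minimum lowered most list counts. The first tests fewer probe sets (22 in place of 45 for the cytoskeleton), and the second can only remove calls.

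Deviations from the structure mean correlated little between same-numbered arrays (r = -0.05 to 0.17, above 0.1 in 3 of 9 pairs), beside -0.14 to 0.15 between differently numbered arrays. The arrays numbered 3 gave 0.10 to 0.12 with each other. Renal vesicle replicate 3 gave -0.10 to -0.02 with differently numbered arrays. A replicate block gave 6, 8 and 10 called members in the 3 comparisons, the added call being Podxl 1448688_at in the renal vesicle against the collecting duct (1.78, adjusted p = 0.044).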
